A study of Mus musculus with 12 samples.

Results

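The change of the IL-4 response with collagen density was examined in 8 RNA-seq libraries of murine bone marrow-derived macrophages (BMDMs) embedded in collagen gels, out of 12 libraries in all. For each gene the interaction was taken as the difference of 2 IL-4 effects, that at high minus that at low collagen density, on the log2(TPM + 1) scale. TPM gives the share of a gene among all transcripts, corrected for length. Genes were kept at a mean of at least 5 TPM over the 8 gel libraries, which left 9458 of 34327 genes. The BMDMs came from wild-type C57BL/6J mice and were cultured, by the labels for 24 hours, in gels of rat tail type I collagen at 2 mg/ml (low collagen) or 7 mg/ml (high collagen), without or with IL-4 at 20 ng/ml. Each of the 4 gel conditions had 2 libraries, and the remaining 4 were of cells grown on plastic (TC plates).

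IL-4 is a type 2 cytokine that acts through its receptor and the transcription factor STAT6 and turns macrophages toward alternative activation, a state linked to tissue repair. Genes of this state encode secreted lectins, chemokines and matrix proteins. The density of a collagen network sets its stiffness and pore size, both of which macrophages in it can sense. A negative interaction stands for an IL-4 effect that was less positive, or more negative, in high-collagen gels, and a positive interaction for the opposite. The same number is also the collagen effect with IL-4 minus the collagen effect without it.

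The libraries had the markers of macrophages. All 12 of 12 macrophage markers reached a mean of 5 TPM, with Lyz2, which encodes lysozyme, the most abundant at 36780 TPM. The fibroblast, eosinophil, dendritic cell, and mast cell and basophil markers reached it in 0 of 10, 0 of 8, 0 of 8 and 0 of 8 genes, and the eosinophil granule gene Epx was listed at 0 in all gel libraries. Neutrophil markers reached it in 3 of 11 genes. Their summed level was 38.03 and 52.62 TPM in untreated low-collagen gels, 32.75 and 23.47 TPM in the IL-4-treated ones, 36.65 and 33.31 TPM in untreated high-collagen gels and 24.95 and 23.69 TPM in the other 2. The most abundant of them was Mmp8 at 11.2 TPM, and Ly6g and Mpo were listed at 0. Of 10 lymphocyte markers only Cd4 passed, at 6.37 TPM. The part of these cells in the results was not tested. In bulk libraries a lower number of expressing cells and less RNA in each cell cannot be told apart. Sequencing depth is unknown because TPM values do not keep it. Nothing in the labels says that the libraries of a condition came from separate mice or cultures, so the p-values measure only the spread between these libraries, which may be technical. An exact permutation test of 2 against 2 libraries cannot give a p under 0.333, so every test of a gene comes from limma, which shares the spread across genes.

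Genes that IL-4 raised tended to be raised less in high-collagen gels, and genes that it lowered tended to be lowered less. By limma, 47 genes (0.497% of those tested) were called for the interaction at an adjusted p under 0.2, with 27 higher (0.285%) and 20 lower (0.211%). Of the 20 genes with a negative interaction, 19 were called higher with IL-4 in both gels, the exception being Ighj1. Of these 20, 9 were under 5 TPM without IL-4 in both gels. They passed the filter only through their IL-4 libraries, so the filter itself set their direction with IL-4. Of the 27 with a positive interaction, 16 were called lower with IL-4 in both gels and 4 in low-collagen gels alone. Another 3 (Gm14749, Pkib and Tecpr1) were lower with IL-4 in low-collagen gels and higher in high-collagen gels, 2 (Fabp5 and Olfr1033) were higher in both, and 2 (1700047I17Rik2 and Trav14n-3) were called higher in high-collagen gels alone. At an unadjusted p under 0.05 there were 991 genes, 771 higher and 220 lower, and the median over all genes tested was 0.09. After median-ratio rescaling of the libraries that median was -0.01, and the split of the calls turned from 27 higher and 20 lower to 11 higher and 20 lower of 31. The IL-4 effect itself was called in 5603 genes (59.2%) in low-collagen gels, 1393 higher (14.7%) and 4210 lower (44.5%). In high-collagen gels it was called in 3646 genes (38.5%), 1196 higher (12.6%) and 2450 lower (25.9%). The collagen effect was called in 955 genes (10.1%) without IL-4 and in 2370 genes (25.1%) with it. These counts also moved with single libraries. That of IL-4 in high-collagen gels was 2413 without untreated high-collagen replicate 1 and 2292 without high-collagen IL-4 replicate 1. That of collagen without IL-4 was 414 without untreated low-collagen replicate 2, and 324 and 172 without untreated high-collagen replicates 1 and 2. That of collagen with IL-4 was 939 without low-collagen IL-4 replicate 2, and 1496 and 881 without high-collagen IL-4 replicates 1 and 2.

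The number of calls depended on single libraries, while the direction of each called gene did not. Without untreated low-collagen replicates 1 and 2 it was 45 and 14, and without low-collagen IL-4 replicates 1 and 2 it was 22 and 9. Without untreated high-collagen replicates 1 and 2 it was 22 and 43, and without high-collagen IL-4 replicates 1 and 2 it was 16 and 10. All 47 genes kept their sign in each of these 8 fits and in the 9 fits with other settings. Their sign was also the same in all 16 combinations of a single library from each condition. Ighj1, Retnla, Fn1, S1pr1, Slc40a1, Gpr162 and 1700047I17Rik2 were called in all 8 fits, and 12 of the 47 genes were called in none of them. Among those called in all 8, Ighj1 and Retnla passed the filter only through the libraries in which they were high.

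**Figure D1:**
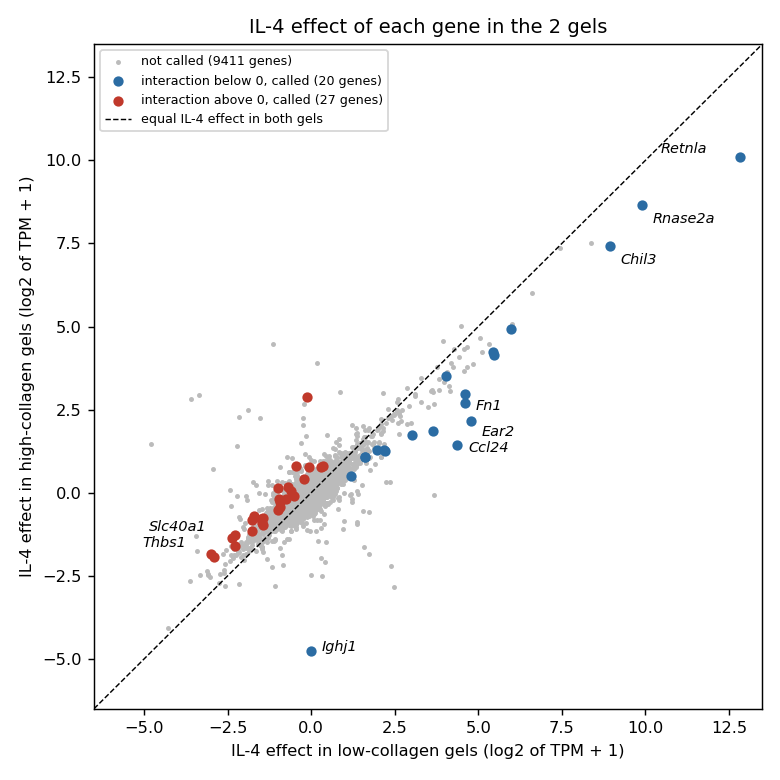
IL-4 effect of each of the 9458 genes in low-collagen gels (horizontal axis) and in high-collagen gels (vertical axis), both as differences of log2(TPM + 1) between means of 2 libraries. The 20 genes called with a negative interaction (blue) lie below the dashed line of equal effects and the 27 with a positive one (red) above it, or 20 and 11 after median-ratio rescaling.

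Several genes with a negative interaction encode secreted products of alternatively activated macrophages. Retnla encodes the secreted resistin-like protein FIZZ1. It was listed at 0 and 0.296 TPM in untreated low-collagen gels and at 7612 and 9073 TPM with IL-4, and at 0.389 and 0 TPM in untreated high-collagen gels and 1472 and 1152 TPM with IL-4. Chil3, a chitinase-like lectin, was at 2.51 and 3.03 TPM rising to 1855 and 1817 TPM in low-collagen gels, and at 1.78 and 2.66 TPM rising to 574 and 531 TPM in high-collagen gels. For both genes the untreated libraries of the 2 gels overlapped or lay close to 0, and both IL-4 libraries of low-collagen gels lay above both of high-collagen gels. The interaction was -2.72 for Retnla (SE 0.276, adjusted p = 0.0185 from limma) and -1.49 for Chil3 (SE 0.186, adjusted p = 0.0424 from limma). Rnase2a and Ear2 encode secreted ribonucleases of the eosinophil-associated family. Rnase2a was listed at 0 in 3 of 4 untreated libraries and at 0.273 TPM in the other, and reached 929 and 962 TPM with IL-4 in low-collagen gels but 468 and 437 TPM in high-collagen gels. Ear2 was listed at 0 in untreated low-collagen gels and at 0.616 and 0.257 TPM in untreated high-collagen gels, and reached 22.3 and 31.6 TPM and 5.50 and 5.18 TPM with IL-4. Their interactions were -1.24 (SE 0.173, adjusted p = 0.0606) and -2.63 (SE 0.352, adjusted p = 0.0525), both from limma. For a gene near 0 without IL-4 the pseudocount sets the size of each IL-4 effect, and the gene entered the test only through its IL-4 libraries. With a pseudocount of 0.1, Retnla (adjusted p = 0.443) and Rnase2a (adjusted p = 0.408) were not called by limma. Over the 9 fits with other settings the interaction lay between -2.84 and -2.68 for Retnla and between -2.01 and -1.095 for Rnase2a. Quantile normalization also ended the call of Retnla (adjusted p = 0.211), and fitting all 12 libraries those of Chil3 (adjusted p = 0.203) and Rnase2a (adjusted p = 0.223), by limma. The calls of Ear2 and Chil3 were lost without low-collagen IL-4 replicate 2 (adjusted p = 0.333 and 0.201 from limma) and without high-collagen IL-4 replicate 2 (0.247 and 0.211). That of Rnase2a was lost without low-collagen IL-4 replicates 1 and 2 (0.216 and 0.333), high-collagen IL-4 replicates 1 and 2 (0.231 and 0.308) and untreated low-collagen replicate 2 (0.204). Of the 31-base words in their transcripts, 60.5% in Ear2 and 41.5% in Chil3 also occur in other genes, so the values of these 2 genes are uncertain.

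The sequences before the start sites of genes with a negative interaction are shown because these genes moved together and several are known IL-4 targets. The 6 shown are those with a negative interaction whose window held a searched motif. Of 26 genes looked up, 13 had an entry in the RefSeq promoter table (GRCm38.p6), and 11 kept at least 100 bases of the 250 before the start after bases inside annotated transcripts were removed. Retnla lies on the plus strand at chr16:48842359-48842550, Chil3 on the minus strand at chr3:106167565-106167814, Ear2 on the plus strand at chr14:44102404-44102653 and Rnase2a on the minus strand at chr14:51256113-51256362. Ch25h lies on the minus strand at chr19:34475165-34475398 and Rbp4 on the minus strand at chr19:38125322-38125571. The windows of Msx3 (negative interaction), Mrc1, Slco2b1 and Xpot held none of the motifs, and that of Pkib (positive interaction) held the STAT6 and the STAT letters. Each is written 5' to 3' on the strand of the gene, and capitals mark letters that match a searched motif on either strand.
Retnla: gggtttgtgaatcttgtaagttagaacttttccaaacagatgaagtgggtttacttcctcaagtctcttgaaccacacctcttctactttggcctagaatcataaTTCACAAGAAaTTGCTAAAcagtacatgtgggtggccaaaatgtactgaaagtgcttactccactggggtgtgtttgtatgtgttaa
Chil3: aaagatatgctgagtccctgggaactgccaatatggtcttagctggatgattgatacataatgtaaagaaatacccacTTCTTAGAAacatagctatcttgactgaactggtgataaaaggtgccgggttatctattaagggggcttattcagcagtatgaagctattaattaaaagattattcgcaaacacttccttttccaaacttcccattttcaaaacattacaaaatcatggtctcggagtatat
Ear2: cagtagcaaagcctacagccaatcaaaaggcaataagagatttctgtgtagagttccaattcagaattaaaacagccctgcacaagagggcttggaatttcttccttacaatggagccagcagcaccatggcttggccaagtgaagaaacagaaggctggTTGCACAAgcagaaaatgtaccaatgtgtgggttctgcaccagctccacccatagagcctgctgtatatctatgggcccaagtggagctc
Rnase2a: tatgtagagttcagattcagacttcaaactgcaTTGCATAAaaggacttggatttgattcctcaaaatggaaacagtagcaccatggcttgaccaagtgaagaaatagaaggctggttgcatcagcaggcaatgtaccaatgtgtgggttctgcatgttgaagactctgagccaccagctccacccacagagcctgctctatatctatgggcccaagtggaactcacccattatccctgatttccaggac
Ch25h: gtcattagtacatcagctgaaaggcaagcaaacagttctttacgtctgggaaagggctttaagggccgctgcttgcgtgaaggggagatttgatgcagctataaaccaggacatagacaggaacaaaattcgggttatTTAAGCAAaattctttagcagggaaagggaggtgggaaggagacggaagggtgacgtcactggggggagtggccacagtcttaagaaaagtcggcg
Rbp4: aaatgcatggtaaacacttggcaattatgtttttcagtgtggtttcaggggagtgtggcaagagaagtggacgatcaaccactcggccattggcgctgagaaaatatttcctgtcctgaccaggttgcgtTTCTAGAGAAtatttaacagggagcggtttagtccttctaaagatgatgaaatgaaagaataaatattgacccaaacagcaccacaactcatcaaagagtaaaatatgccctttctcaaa

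The motifs searched, on both strands, were TTC and GAA with any 4 bases between them (named here for STAT6), TTCNNNGAA (for STAT factors) and TTGCNNAA (for C/EBP factors). Those for STAT factors are both made of TTC and GAA and differ in the spacer, and none of the matches shown overlapped another. Positions are counted back from the end of the printed window. That of Retnla held the STAT6 letters at 87 bases and the C/EBP letters at 76 bases. Rbp4 held the STAT6 letters at 120 bases and Chil3 those of STAT factors at 172 bases. Ear2, Rnase2a and Ch25h held the C/EBP letters at 90, 217 and 96 bases. Over 250 bases before the start, the C/EBP letters occurred in 6 of 15 genes called with a negative interaction that had an entry (40.0%), in 2 of 12 with a positive one (16.7%) and in 9.56% of 32851 promoters. The STAT6 letters occurred in 3 of the 15, 1 of the 12 and 5.85% of all promoters, and the STAT letters in 1 of the 15, 2 of the 12 and 7.02%. Ear2 and Rnase2a are related genes and are not separate examples.

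A matrix glycoprotein and a chemokine were also raised less at high collagen density. Fn1, which encodes the matrix glycoprotein fibronectin, was at 20.3 and 25.6 TPM untreated and 607 and 547 TPM with IL-4 in low-collagen gels, and at 55.3 and 55.1 TPM and 368 and 357 TPM in high-collagen gels. Untreated BMDMs thus had more of it in high-collagen gels and IL-4-treated BMDMs less, with no overlap in either pair. IL-4 raised its mean 25.1-fold in low-collagen and 6.57-fold in high-collagen gels, an interaction of -1.91 (SE 0.150, adjusted p = 0.00994 from limma). Ccl24, a chemokine that attracts eosinophils, was at 3.13 and 2.25 TPM untreated and 76.0 and 73.6 TPM with IL-4 in low-collagen gels, against 2.12 and 0.353 TPM and 3.44 and 5.92 TPM in high-collagen gels. Its level in high-collagen gels with IL-4 was above that of untreated libraries of either gel and far below that of low-collagen gels with IL-4. Only its low-collagen IL-4 libraries had a mean above 5 TPM (4.68 TPM in high-collagen gels with IL-4), so it entered the test through that group alone. The interaction of Ccl24 was -2.94 (SE 0.528, adjusted p = 0.161 from limma), and it was called without untreated high-collagen replicates 1 (0.189) and 2 (0.0273) but not without untreated low-collagen replicates 1 and 2 (0.227 and 0.359), low-collagen IL-4 replicates 1 and 2 (0.327 and 0.424) or high-collagen IL-4 replicates 1 and 2 (0.348 and 0.270). Pseudocount 0.1 (0.408), no filter (0.338) and no mean-variance trend (0.244) also ended its call by limma.

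**Figure D2:**
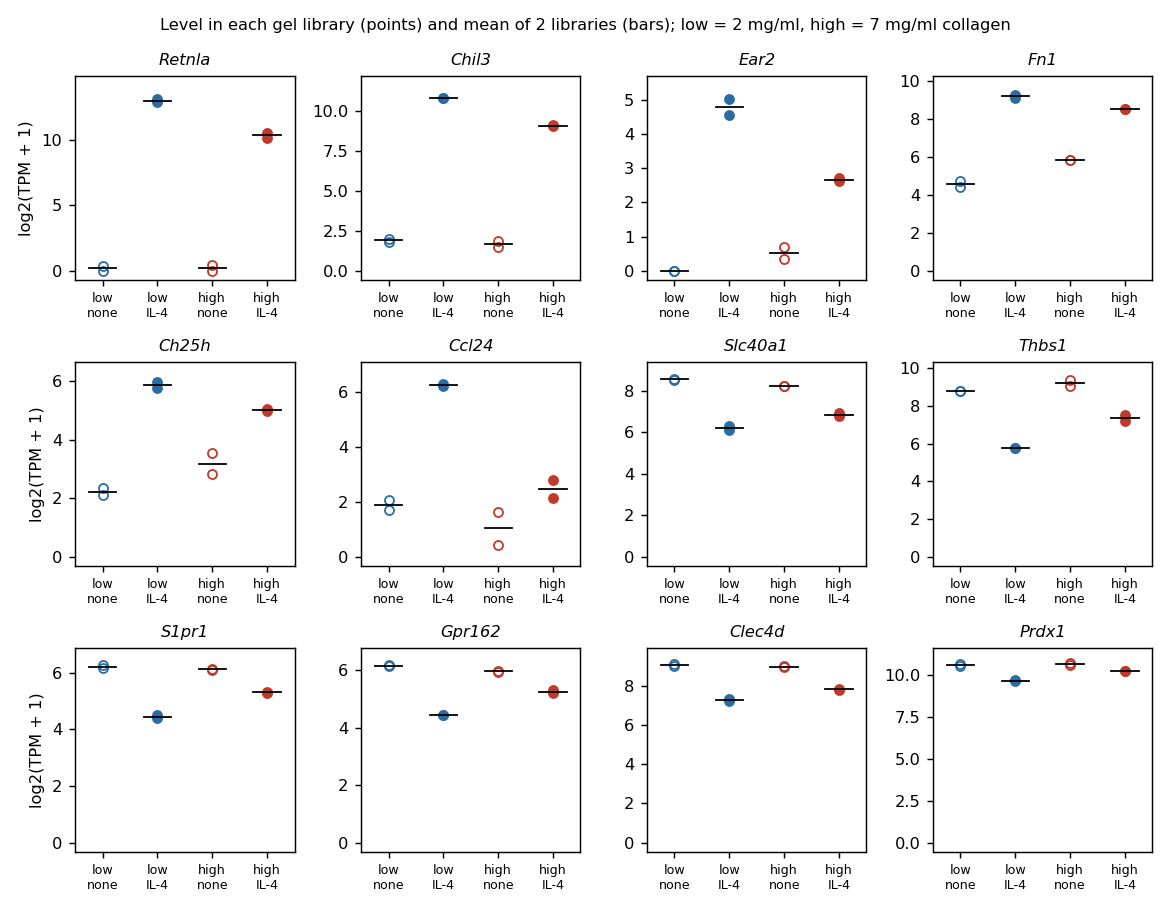
Level of 12 genes in each of the 8 gel libraries, as log2(TPM + 1), with untreated libraries as open and IL-4-treated as filled circles and a bar at the mean of 2. Retnla, Chil3, Ear2, Fn1, Ch25h and Ccl24 rose less with IL-4 in high-collagen gels, and Slc40a1, Thbs1, S1pr1, Gpr162, Clec4d and Prdx1 fell less on this log2 scale (in TPM Thbs1 fell more).

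The other genes called with a negative interaction had varied roles. Ch25h, whose enzyme makes an oxysterol from cholesterol, was at 3.27 and 4.04 TPM untreated and 61.7 and 53.5 TPM with IL-4 in low-collagen gels, and at 10.6 and 6.04 TPM and 32.2 and 30.6 TPM in high-collagen gels. Rbp4, a retinol carrier, was listed at 0 in all 4 untreated libraries and reached 22.4 and 24.2 TPM in low-collagen gels with IL-4 against 7.86 and 5.88 TPM in high-collagen gels. In both genes the IL-4 libraries of the 2 gels did not overlap. Their interactions were -1.81 for Ch25h (SE 0.307, adjusted p = 0.119) and -1.64 for Rbp4 (SE 0.321, adjusted p = 0.194), both from limma. Rbp4 and Msx3, both listed at 0 without IL-4, entered the test only through their IL-4 libraries and lost their calls at pseudocount 0.1 (0.594 and 0.573, adjusted p from limma) and with no filter (0.223 and 0.237). Rbp4 also lost its call after median-ratio rescaling (0.217) and quantile normalization (0.243), and Ch25h with no filter (0.304) and no mean-variance trend (0.232). Pdlim1, at 0.147 to 0.539 TPM without IL-4, has the same limit and lost its call at pseudocount 0.1 (0.576), a mean of at least 1 TPM (0.205), no filter (0.321), no trend (0.212) and median-ratio rescaling (0.217). Slc7a2, a transporter of cationic amino acids such as arginine, had -1.06 (adjusted p = 0.194 from limma) and Abcg1, a cholesterol exporter, -0.53 (adjusted p = 0.194). Slc7a2, at 0.890 to 1.55 TPM without IL-4, also entered the test only through its IL-4 libraries, and it lost its call at pseudocount 0.1 (0.354), a mean of at least 1 TPM (0.207), no filter (0.304) and no trend (0.232), and Abcg1 at the same pseudocount (0.217), a mean of at least 1 TPM (0.201) and no trend (0.273). The folding enzyme Pdia4 went from 66.0 and 70.6 TPM to 334 and 290 TPM with IL-4 in low-collagen gels, and from 72.8 and 70.2 TPM to 180 and 172 TPM in high-collagen gels. Its untreated libraries lay close together and its interaction was -0.88 (SE 0.119, adjusted p = 0.0525 from limma). Interactions from -1.34 to -1.22 were called for Pdlim1, an adaptor on actin filaments, AA467197 and Msx3, a homeobox factor. Chosen after their values were seen are 5 more, with interactions from -0.95 to -0.54: Cisd1, an iron-sulfur protein of mitochondria, Psmb10, a subunit of the immunoproteasome, Srgn, the proteoglycan core protein serglycin, Galnt6, an enzyme of O-linked glycosylation, and F10, a coagulation factor. Rbp4, Msx3, Slc7a2, Abcg1, Galnt6 and F10 were called in none of the 8 fits without a library, with adjusted p from limma between 0.205 and 0.579. Ch25h was called only without untreated high-collagen replicates 1 (0.145) and 2 (0.0215), with 0.238 to 0.393 in the other 6 fits, and Pdlim1 only without untreated high-collagen replicate 1 (0.170). Cisd1 and Psmb10 were called only without untreated high-collagen replicate 2 (0.111 and 0.147) and untreated low-collagen replicate 1 (0.0803 and 0.0893). Srgn lost its call without high-collagen IL-4 replicates 1 (0.205) and 2 (0.211) and low-collagen IL-4 replicate 2 (0.215). With no trend the calls of Srgn (0.232), Psmb10 (0.250), Galnt6 (0.250) and F10 (0.257) ended, and after quantile normalization those of Psmb10 (0.211) and F10 (0.249). F10 also lost its call at pseudocount 0.1 (0.217), a mean of at least 1 TPM (0.207) and with all 12 libraries (0.324). AA467197 lost it without high-collagen IL-4 replicates 1 and 2 (0.234 and 0.211) and low-collagen IL-4 replicates 1 and 2 (0.216 and 0.215). The call of Pdia4 was lost only without high-collagen IL-4 replicate 2 (0.247).

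The positive interactions held many genes that IL-4 lowered, among them genes of iron and redox handling. Slc40a1 encodes ferroportin, the exporter of cellular iron. It was at 381 and 373 TPM untreated and 67.9 and 77.2 TPM with IL-4 in low-collagen gels, and at 298 and 299 TPM and 111 and 119 TPM in high-collagen gels. All IL-4 libraries lay below all untreated ones, with the 2 gels apart in both states and in opposite order. Its interaction was 0.99 (SE 0.108, adjusted p = 0.0208 from limma). Ncoa4, which delivers ferritin for degradation, went from 256 and 269 TPM to 154 and 155 TPM with IL-4 in low-collagen gels, and from 172 and 199 TPM to 160 and 164 TPM in high-collagen gels. Hmox1, the inducible heme oxygenase, went from 541 and 543 TPM to 379 and 373 TPM and from 395 and 368 TPM to 358 and 355 TPM. In these 2 genes the gels differed mainly without IL-4, and the IL-4 libraries lay close together. Their interactions were 0.57 (SE 0.111, adjusted p = 0.194) and 0.43 (SE 0.0802, adjusted p = 0.180), both from limma. Prdx1, a peroxidase of hydrogen peroxide, went from 1494 and 1606 TPM to 805 and 812 TPM in low-collagen gels and from 1561 and 1656 TPM to 1206 and 1184 TPM in high-collagen gels. There the untreated libraries overlapped and the IL-4 libraries did not, with an interaction of 0.51 (SE 0.0816, adjusted p = 0.0995 from limma). Hmox1 was called in none of the 8 fits without a library (adjusted p from 0.238 to 0.497, limma), and Ncoa4 only without untreated high-collagen replicate 2 (0.104). Prdx1 was called only without untreated high-collagen replicate 2 (0.141) and untreated low-collagen replicate 1 (0.0893), with 0.242 to 0.345 in the other 6 fits. Median-ratio rescaling ended the calls of Ncoa4 (adjusted p = 0.346), Hmox1 (0.419) and Prdx1 (0.346) by limma, and so did fitting no mean-variance trend (0.338, 0.389 and 0.307). Ncoa4 and Prdx1 also lost theirs with no filter (0.280 and 0.229). Ncoa4 lost it with a mean of at least 1 TPM (0.214), a pseudocount of 0.1 (0.217) and quantile normalization (0.270) as well.

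Surface receptors and a thrombospondin were also lowered less by IL-4 in high-collagen gels. S1pr1, a receptor for sphingosine phosphate, was at 70.0 and 76.3 TPM untreated and 21.6 and 19.9 TPM with IL-4 in low-collagen gels, and at 69.0 and 67.9 TPM and 38.8 and 38.3 TPM in high-collagen gels. Gpr162, an orphan receptor, was at 72.2 and 69.6 TPM and 20.98 and 20.61 TPM in low-collagen gels, and at 62.4 and 60.4 TPM and 36.0 and 38.5 TPM in high-collagen gels. In both genes the IL-4 libraries of high-collagen gels lay above the low-collagen ones with no overlap, while untreated libraries were slightly lower in high-collagen gels. Their interactions were 0.96 (SE 0.117, adjusted p = 0.0414) and 1.01 (SE 0.111, adjusted p = 0.0208), both from limma. Thbs1, a matrix glycoprotein that also bridges dying cells to phagocytes, went from 438 and 435 TPM to 53.8 and 53.1 TPM in low-collagen gels and from 668 and 528 TPM to 182 and 147 TPM in high-collagen gels. It was higher in high-collagen gels in both states, and more so with IL-4, with an interaction of 1.15 (SE 0.176, adjusted p = 0.0806 from limma). On the plain TPM scale the fall of Thbs1 was larger in high-collagen gels, by 50.7 TPM, so its sign depends on the scale, as did that of Itga6, an integrin subunit for laminin. The other 25 genes with a positive interaction and all 20 with a negative one had the same sign in TPM. The call of Thbs1 was lost without low-collagen IL-4 replicates 1 and 2 (adjusted p = 0.216 and 0.333 from limma), untreated low-collagen replicate 2 (0.284) and high-collagen IL-4 replicate 1 (0.223). It was also lost with no filter (0.255), no mean-variance trend (0.232) and quantile normalization (0.221).

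The other genes called with a positive interaction had varied roles. Their values were 1.02 for the microtubule-associated gene Mtus1, 0.98 for the organic anion transporter Slco2b1, 0.89 for the kinase inhibitor Pkib, 0.76 for the tRNA export factor Xpot, 0.67 for Itga6, 0.63 for the lectin receptor Clec4d and 0.45 for the fatty acid carrier Fabp5. Chosen after their values were seen are 9 more with 0.47 to 0.69: Arhgap18, the anion transporter Slc26a11, the ubiquitin ligase Wwp1, the motor subunit Kif3a, the autophagy gene Tecpr1, the stress response gene Sesn1, the bridging ligand Gas6, Olfr1033 and Rcbtb2. Pkib was at 76.0 and 78.7 TPM untreated and 49.9 and 44.5 TPM with IL-4 in low-collagen gels, and at 71.3 and 80.5 TPM and 85.6 and 87.2 TPM in high-collagen gels. The IL-4 effect on Pkib was -0.70 in low-collagen gels. In high-collagen gels it was a small rise of 0.19, called close to the threshold (adjusted p = 0.182 from limma). The untreated libraries of the 2 gels overlapped. The adjusted p of the interaction of Pkib was 0.0606 (SE 0.125, limma). Each of these 16 calls depended on single libraries. Itga6, Gas6, Rcbtb2 and Olfr1033 were called in none of the 8 fits without a library, with adjusted p from 0.213 to 0.497 (limma). Without untreated low-collagen replicate 1, calls remained for Slco2b1 (0.158), Pkib (0.138), Clec4d (0.0893), Fabp5 (0.196), Sesn1 (0.154), Tecpr1 (0.139), Wwp1 (0.0803) and Slc26a11 (0.195). Without untreated high-collagen replicate 2 they remained for Pkib (0.0720), Clec4d (0.182), Fabp5 (0.178), Tecpr1 (0.160), Kif3a (0.168) and Wwp1 (0.168), and without replicate 1 of the same gels for Slco2b1, Pkib and Clec4d (0.189 each). Without low-collagen IL-4 replicate 1 they remained for Mtus1 (0.175), Xpot (0.175), Pkib (0.102), Tecpr1 (0.102) and Wwp1 (0.199), and without high-collagen IL-4 replicate 1 for Arhgap18 (0.180). Without low-collagen IL-4 replicate 2, high-collagen IL-4 replicate 2 or untreated low-collagen replicate 2, 0 of the 16 were called. Median-ratio rescaling ended 10 of the 16 calls: Mtus1 (0.217), Xpot (0.234), Clec4d (0.272), Fabp5 (0.416), Slc26a11 (0.329), Kif3a (0.346), Sesn1 (0.272), Gas6 (0.419), Olfr1033 (0.421) and Rcbtb2 (0.437). With no mean-variance trend only Pkib stayed called (0.190), and the other 15 had adjusted p from 0.212 to 0.404. No filter ended the calls of Mtus1, Slco2b1, Xpot, Itga6, Fabp5, Slc26a11, Kif3a, Gas6 and Olfr1033. Quantile normalization ended those of Xpot, Itga6, Slc26a11, Kif3a, Gas6, Olfr1033 and Rcbtb2. Pseudocount 0.1 and a mean of at least 1 TPM each ended those of Mtus1, Itga6, Fabp5, Kif3a and Olfr1033, and the latter that of Xpot. All 12 libraries ended those of Mtus1 and Olfr1033, and pseudocount 5 that of Mtus1.

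A few calls rest on values that cannot be assigned with certainty. Ighj1, an immunoglobulin joining segment, was listed at 0 in 6 of the 8 gel libraries and at 34.9 and 19.4 TPM in untreated high-collagen gels. It thus entered the test only through the untreated high-collagen libraries, where it was high. Its only transcript has 53 bases, and the interaction of -4.76 (SE 0.485, adjusted p = 0.0185 from limma) was not called with a pseudocount of 0.1 (0.452). 1700047I17Rik2 was at 0.1002 and 0.00142 TPM in untreated high-collagen gels and between 6.54 and 9.23 TPM in the other 6, an interaction of 3.01 (SE 0.297, adjusted p = 0.0185 from limma). All of its 31-base words (100%) also occur in Fam177a, so the division of reads between the 2 genes decides its value. Gm14749, a processed pseudogene (65.0% of words shared), and Trav14n-3, a T cell receptor segment (59.2%), had interactions of 1.25 and 0.85. AC159290.1, at 1.14, was not in the annotation used. Of these 3, Gm14749 stayed called only without untreated low-collagen replicate 1 (adjusted p = 0.164 from limma), Trav14n-3 only without high-collagen IL-4 replicate 2 (0.157) and AC159290.1 in none of the 8 fits. Median-ratio rescaling (0.249, 0.346 and 0.272), no filter (0.304, 0.304 and 0.257), quantile normalization (0.238, 0.330 and 0.293) and all 12 libraries (0.402, 0.422 and 0.458) each ended all 3 calls. No trend ended those of Gm14749 (0.232) and Trav14n-3 (0.251), a mean of at least 1 TPM that of Trav14n-3 (0.205) and pseudocount 0.1 that of AC159290.1 (0.240).

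The size of the IL-4 effect and the interaction were set side by side over all genes tested. Genes were sorted by the mean of their IL-4 effects in the 2 gels, which in a balanced design does not by itself push their difference either way. The median interaction was 0.34 for 210 genes lowered by 1 to 2 (log2) and 0.48 for 30 genes lowered by 2 or more, against 0.09 over all 9458 genes. It was -0.10 for 144 genes raised by 1 to 2, -0.21 for 31 genes raised by 2 to 3 and -0.63 for 44 genes raised by 3 or more. Of these 144, 31 and 44 genes, 20, 9 and 35 were under 5 TPM without IL-4 in both gels. Such genes passed the filter only through their IL-4 libraries, and the pseudocount sets the size of their effects, so values of groups that hold them are a description only. Of all genes tested, 34.3% had a negative and 65.7% a positive interaction. Of 240 genes lowered at least 2-fold, none was under 5 TPM without IL-4 in both gels. Some, such as Cx3cr1 and Nr4a1, were under 5 TPM with IL-4 in both gels and passed the filter only through their untreated libraries. The pseudocount also shapes the effects of such genes, so values of this set are a description only. Of the 240, 83.3% had a positive interaction, with a median of 0.36 (0.25 to 0.51 over the 16 combinations of a single library from each condition). Of 219 genes raised at least 2-fold, 72.6% had a negative one, with a median of -0.19 (-0.31 to -0.15). Without the 64 of them that were under 5 TPM in both untreated gels, a choice made after the values were seen, the other 155 had a median of -0.13 and 72.3% were negative. After median-ratio rescaling, which lowers all interactions by about 0.09, and quantile normalization the median of raised genes remained negative and that of lowered genes positive. Not every gene raised by IL-4 had a called interaction: that of Mrc1, the mannose receptor, was -0.17 (SE 0.146, adjusted p = 0.705 from limma).

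**Figure D3:**
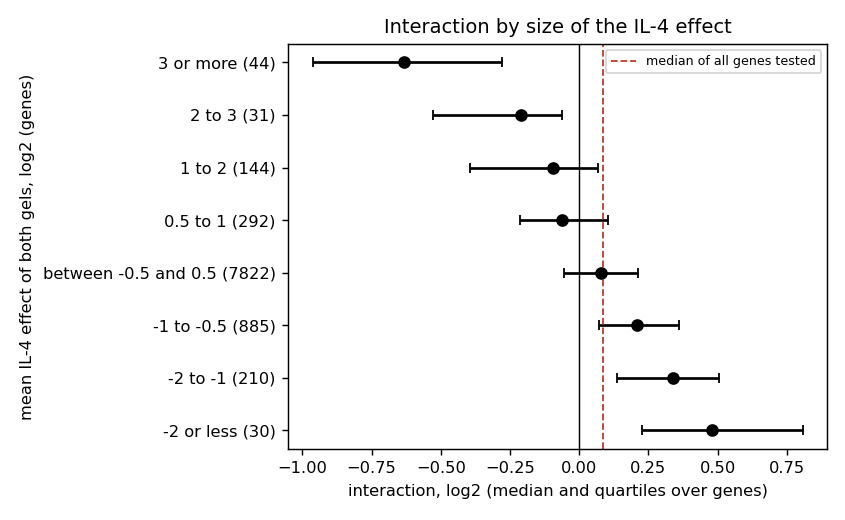
Median interaction (points) with quartiles (bars) of genes grouped by their mean IL-4 effect in the 2 gels (log2, number of genes in brackets). The medians go from -0.63 in genes raised by 3 or more to 0.48 in genes lowered by 2 or more (35 of the 44 genes raised by 3 or more were under 5 TPM without IL-4 in both gels), and the dashed line marks the median of all genes tested, 0.09.

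Lists of genes were described by their counts and medians, with no test. Of 32 measured alternative activation genes, 8 were called with a negative interaction and 0 with a positive one, 17 were lower at an unadjusted p under 0.05, and 29 were negative. Over all 9458 genes tested, 3241 were negative, 20 were called lower (0.211%), 27 higher, and 220 were lower and 771 higher at that p. Of the 32, 13 were under 5 TPM without IL-4 in both gels and passed the filter only through their IL-4 libraries, and the other 19 (a split made after the values were seen) had a median of -0.14, with 16 negative. Of the called genes, Retnla, Ear2, Rnase2a, Chil3, Ccl24 and Slc7a2 were among these 13, and only Fn1 and Ch25h were among the other 19. The median of all 32 was -0.53, against 0.09 over all genes tested, and stayed negative after median-ratio rescaling (-0.63) and quantile normalization (-0.59). The study picked 8 of these genes on these libraries, 6 of which were called, so their count is not independent. Among the 24 genes not picked, 2 were called (Ch25h and Slc7a2), 11 were lower at an unadjusted p under 0.05 and the median was -0.36. Values in this group that did not pass the test included -0.95 for Itgax, an integrin subunit, -0.87 for Mgl2, a lectin of galactose residues, -0.89 for Batf3 and -0.80 for Irf4, both transcription factors.

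Genes that carry the IL-4 signal, and regulators downstream of it, were looked at next. Over all 9458 genes tested, 20 were called lower and 27 higher, and 220 were lower and 771 higher at an unadjusted p under 0.05. Of 17 measured genes of the IL-4 receptor and STAT6 pathway, 0 were called by limma in either direction, with 2 higher and 1 lower at an unadjusted p under 0.05. Their median of 0.02 turned to -0.08 after rescaling and -0.02 after quantile normalization. Its largest values were -0.62 for Socs1 and -0.53 for Socs2, which encode inhibitors of cytokine signaling, 0.50 for the receptor chain Il13ra1 and -0.33 for Cish. Of 23 transcription regulators of alternative activation, 0 were called by limma, with 2 higher and 4 lower at an unadjusted p under 0.05. The transcription factors Batf3 and Irf4 had -0.89 and -0.80, while Egr2 went the other way with 0.60. With a pseudocount of 5 the value of Egr2 turned to -0.32. Egr2 and Irf4 were under 5 TPM without IL-4 in both gels and passed the filter only through their IL-4 libraries. Cebpd, a C/EBP factor, had -1.003, with 8.13 and 6.70 TPM untreated and 7.87 and 9.17 TPM with IL-4 in low-collagen gels, and 7.44 and 5.96 TPM and 3.60 and 3.08 TPM in high-collagen gels. Its lowest libraries were those of high-collagen gels with IL-4, but the adjusted p of 0.319 from limma was not past the threshold.

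Among secreted and matrix genes the picture was mixed, to be read beside 20 genes called lower and 27 higher, and 220 lower and 771 higher at an unadjusted p under 0.05, of all 9458 tested. Of 7 secreted ribonucleases, Ear2 and Rnase2a were called lower, while Rnase6 (0.23) and Rnaset2a (0.22) were not called. Of 11 CC chemokines, Ccl24 was called, 3 were lower at an unadjusted p under 0.05, and Ccl9 and Ccl12 had -0.50 and -0.55 and Ccl3 0.51, none of these 3 called. Of 11 matrix glycoproteins, Fn1 was called lower and Thbs1 higher, and of 14 matrix proteases and inhibitors 0 were called by limma, with 1 higher and 2 lower at an unadjusted p under 0.05. Of 13 integrin subunits Itga6 was called higher. MHC class II presentation had 0 of 11 calls by limma and 4 lower at an unadjusted p under 0.05, with a median of -0.17. The lowest member, Cd40 at -0.82, encodes a costimulatory receptor and not a class II protein. The class II genes H2-Aa, H2-DMa and H2-Ab1 had -0.47, -0.45 and -0.27, and Cd74, the invariant chain, had 0.03. Of 16 genes of arginine and polyamine metabolism, Slc7a2 was called, and of 31 genes of the unfolded protein and integrated stress responses, Pdia4. Of 13 LXR targets, Abcg1 was called lower, while the other exporter Abca1 had 0.42 and was not called. Of 7 genes of retinoid handling, Rbp4 was called lower. Ear2, Rnase2a, Ccl24, Slc7a2 and Rbp4 were under 5 TPM without IL-4 in both gels. They passed the filter only through their IL-4 libraries, so their calls are a description only.

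Lists of iron, redox, lipid, receptor and immediate early genes are described next, to be read beside 27 called higher, 771 higher at an unadjusted p under 0.05 and a median of 0.09 over all 9458 genes tested. Of 15 iron and heme genes, 3 were called higher (Slc40a1, Ncoa4 and Hmox1) and 0 lower, 5 were higher and 2 lower at an unadjusted p under 0.05, and their median was 0.22. After median-ratio rescaling the median was 0.12 and only Slc40a1 stayed called (Ncoa4 0.346 and Hmox1 0.419, adjusted p from limma). The receptor for iron uptake, Tfrc, had -0.54 and the ferroxidase Cp 1.37, and neither was called. Of 21 NRF2 antioxidant genes, 2 were called higher (Prdx1 and Hmox1, which is in both lists) and 7 were higher and 0 lower at an unadjusted p under 0.05, with a median of 0.21. After rescaling the median was 0.11 and neither was called (Prdx1 0.346). Of 24 genes of lipid uptake and storage, Fabp5 was called (not after rescaling, 0.416) and the median was 0.18 (0.09 after rescaling). Of 21 efferocytosis genes, the bridging genes Thbs1 and Gas6 were called higher, with a median of 0.12 (0.03 after rescaling), and of 14 C-type lectins, with a median of 0.02 (-0.08 after rescaling), Clec4d was called. After rescaling Gas6 (0.419) and Clec4d (0.272) were not. Of 15 Toll-like receptor genes 0 were called by limma and 3 were higher at an unadjusted p under 0.05, with a median of 0.20 (0.11 after rescaling) and Tlr2 and Tlr7 at 0.52 and 0.53. Of 8 chemokine receptors 0 were called by limma and 3 were higher at that p, with Ccrl2 at 0.94 and Cxcr4 at 0.56, and their median of 0.16 turned to -0.004 after quantile normalization. Of 21 immediate early genes 0 were called by limma and 3 were higher at that p, with a median of 0.20 (0.11 after rescaling) and Nr4a1 at 0.85.

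Interferon-stimulated genes varied between libraries of the same condition. Their median was -0.18 over 38 genes but ranged from -1.21 to 0.76 over the 16 combinations, with 0 called by limma and 1 lower at an unadjusted p under 0.05. Ifit2, an interferon-induced gene, was at 13.53 and 49.24 TPM in the 2 untreated low-collagen libraries and at 24.2 and 8.23 TPM in those with IL-4. The groups overlapped, and at high collagen density it was at 14.7 and 31.9 TPM and 9.51 and 5.35 TPM. Lists of cytosolic ribosomal proteins (50 genes, median -0.08, or -0.18 after rescaling), nuclear oxidative phosphorylation genes (38, -0.08, or -0.18), SRF targets (15, -0.09, or -0.19), cell cycle genes (43, 0.03 but -0.07 after rescaling), actin cytoskeleton genes (38, 0.02 but -0.08 after rescaling) and glycolysis genes (32, 0.09 but -0.004 after rescaling) had 0 calls by limma each. At an unadjusted p under 0.05 they had 2, 4, 2, 0, 3 and 0 genes lower and 0, 0, 0, 3, 3 and 5 higher. Over all 9458 genes tested, 220 were lower and 771 higher at that p, and 20 were called lower and 27 higher.

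**Figure D4:**
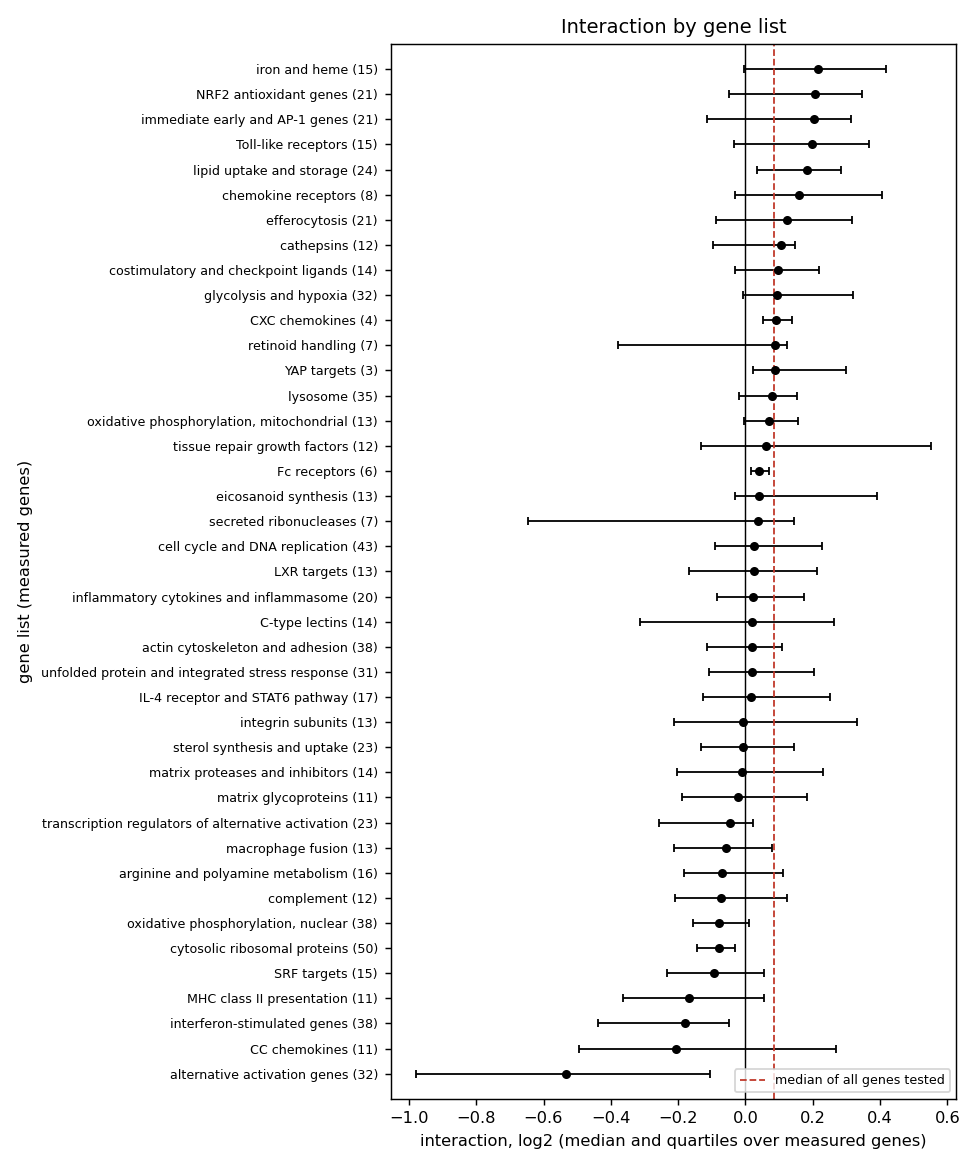
Median interaction (points) with quartiles (bars) over the measured members of each gene list (number in brackets), with the median of all genes tested, 0.09, as a dashed line. Alternative activation genes lie lowest at -0.53 (-0.63 after median-ratio rescaling), and iron and heme genes lie at 0.22 (0.12). Of the 32 alternative activation genes, 13 were under 5 TPM without IL-4 in both gels. Without these their median is -0.14, which is not the lowest (CC chemokines lie at -0.21).

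The same interactions can be read by collagen. The collagen effect was larger with IL-4 than without it in 17 of the 20 genes with a negative interaction and in 20 of the 27 with a positive one. Such a majority was not particular to called genes. Among the 240 genes lowered at least 2-fold by IL-4, the collagen effect was larger with IL-4 in 168. Among the 155 raised genes not under 5 TPM in both untreated gels, it was larger in 84. Over all genes tested, a collagen effect was called in 25.1% with IL-4 and in 10.1% without. Of those 20 negative genes, 9 were under 5 TPM without IL-4 in both gels, which left little room for a collagen effect there, and among the other 11 it was larger with IL-4 in 8. Of the 20, 19 were called lower in high-collagen gels with IL-4, and 7 of these were called higher there without it. Of the 27, 23 were called higher in high-collagen gels with IL-4, 6 of them lower there without it. Over all 9458 genes tested, 802 (8.48%) were called lower and 1568 (16.6%) higher in high-collagen gels with IL-4. Without IL-4, 586 (6.2%) were called lower and 369 (3.9%) higher. Fn1 had a collagen effect of 1.24 without and -0.67 with IL-4, and Slc40a1 -0.34 without and 0.66 with IL-4. The 4 comparisons share libraries, so their counts are not independent of each other.

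**Figure D5:**
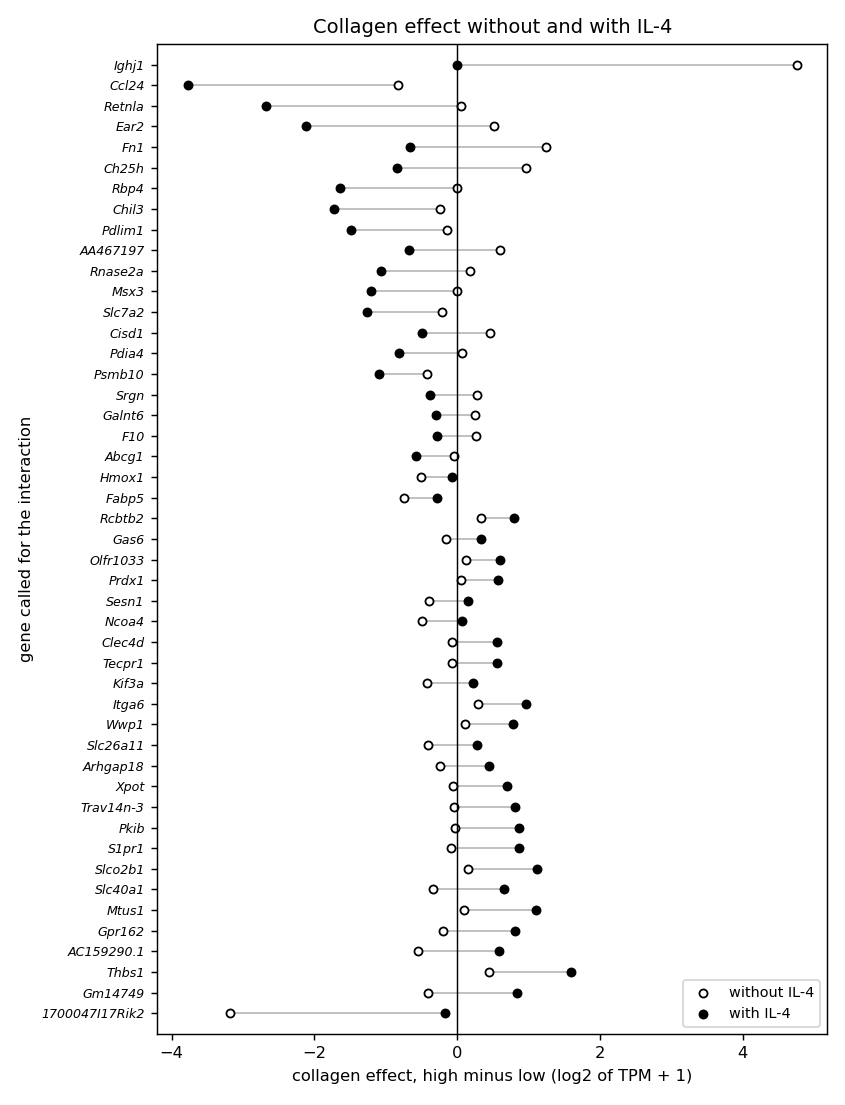
Collagen effect (high minus low collagen, difference of log2(TPM + 1)) without IL-4 (open circles) and with IL-4 (filled circles) for the 47 called genes. The line between the circles is the interaction, from -4.76 for Ighj1 to 3.01 for 1700047I17Rik2.

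Levels on TC plates are given as values, since the plates differ from gels in more than collagen. Retnla was at 0.969 and 6.52 TPM untreated and 127 and 110 TPM with IL-4, below the levels of both gels with IL-4. Fn1 was at 17.3 and 20.5 TPM and 178 and 186 TPM, and Ccl24 at 0.352 and 0.137 TPM and 11.9 and 8.46 TPM. With IL-4, Fn1 on plates was thus lower than in either gel, and Ccl24 lay between them. Slc40a1 was at 245 and 234 TPM and 56.1 and 64.7 TPM, and S1pr1 at 101 and 98.7 TPM and 37.99 and 41.57 TPM. For S1pr1 the level with IL-4 was close to that of high-collagen gels, and for Slc40a1 it was below that of both gels.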

How the data were processed

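BMDMs were profiled by RNA-seq in 12 libraries, 8 of them in gels. The authors made stranded mRNA libraries, sequenced paired reads of 38 bases, quantified transcripts with kallisto 0.46.1 on the Ensembl release 90 transcriptome of GRCm38, and deposited TPM per gene. How transcripts were summed to genes is not given in the sources used here. Depth is unknown. Of 34456 lines in the table, 129 repeated a symbol and its values and were collapsed.

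From the deposited TPM, log2(TPM + 1) was computed (pseudocount 1), genes with a mean of at least 5 TPM over the 8 gel libraries were kept, and limma 3.58.1 in R 4.3.3 was fitted with a mean for each condition and a variance trend, and p was adjusted by Benjamini-Hochberg over all genes tested. Genes were called at an adjusted p under 0.2. The fit was tested on simulated data. Alternatives were pseudocounts of 0.1 and 5, a mean of at least 1 TPM, no filter, no trend, median-ratio rescaling, quantile normalization, a block by replicate number, all 12 libraries, an adjusted p under 0.05, a 2-fold minimum and each gel library left out. With a library left out, the lone library of its condition was assumed to vary like the others. Scaling alternatives for the lists, and medians without genes under 5 TPM in both untreated gels, were chosen after seeing the data.

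Named genes were the 12 most negative and 12 most positive called genes with the same sign in all 16 combinations of a single library from each condition, the 8 that the study names for its RNA-seq, and in each list described up to 4 measured genes with the largest interaction of either sign. Other called genes and list members were chosen after their values were seen. The members and lists were chosen with earlier results of these data known. Shared 31-base words were counted in the GENCODE annotation of GRCm38. Tables were handled with pandas 2.3.3 and numpy 2.4.6 in Python 3.11.15, and drawn with matplotlib 3.10.9.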

Additional observations from a re-analysis of the deposited data

Results flagged for a closer look

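At an adjusted p under 0.2, the limma test of the interaction called 47 genes, 27 with a higher and 20 with a lower value in high-collagen gels. After median-ratio rescaling 31 genes were called, 11 higher and 20 lower. Of the 20 genes called lower in the main fit, 9 were under 5 TPM without IL-4 in both gels. They passed the filter only through their IL-4 libraries, and Ighj1 only through its untreated high-collagen libraries. The negative values (log2) were -4.76 for Ighj1, -2.94 for Ccl24, -2.72 for Retnla, -2.63 for Ear2, -1.91 for Fn1, -1.81 for Ch25h, -1.64 for Rbp4, -1.49 for Chil3, -1.34 for Pdlim1 and -1.27 for AA467197. They were -1.24 for Rnase2a, -1.22 for Msx3, -1.06 for Slc7a2, -0.95 for Cisd1, -0.88 for Pdia4, -0.67 for Psmb10, -0.67 for Srgn, -0.55 for Galnt6, -0.54 for F10 and -0.53 for Abcg1.

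The positive values were 3.01 for 1700047I17Rik2, 1.25 for Gm14749, 1.15 for Thbs1, 1.14 for AC159290.1, 1.02 for Mtus1, 1.01 for Gpr162, 0.99 for Slc40a1, 0.98 for Slco2b1, 0.96 for S1pr1, 0.89 for Pkib, 0.85 for Trav14n-3, 0.76 for Xpot, 0.69 for Arhgap18 and 0.68 for Slc26a11. They were 0.68 for Wwp1, 0.67 for Itga6, 0.65 for Kif3a, 0.64 for Tecpr1, 0.63 for Clec4d, 0.57 for Ncoa4, 0.54 for Sesn1, 0.51 for Prdx1, 0.48 for Olfr1033, 0.48 for Gas6, 0.47 for Rcbtb2, 0.45 for Fabp5 and 0.43 for Hmox1.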

How the results depend on the processing

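The count of 47 genes called for the interaction (27 higher, 20 lower) was 20 (7 and 13) without the mean-variance trend, 31 (11 higher) after median-ratio rescaling, 102 (71 and 31) with all 12 libraries in the fit, 9 (4 and 5) at an adjusted p under 0.05 and 19 (6 and 13) with a 2-fold minimum. With a pseudocount of 0.1 there were 10 lower. The replicate numbers did not pair the libraries, since deviations of same-numbered libraries correlated between -0.191 and 0.126. With the number as a block 25 genes were called (13 and 12), 24 of them among the 47. Leaving out 1 library gave 9 to 45 calls, 4 to 25 higher and 4 to 21 lower.

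At an adjusted p under 0.05 and with a 2-fold minimum, the other calls were 3473 and 590 for IL-4 in low-collagen gels, 1826 and 372 for IL-4 in high-collagen gels, 93 and 44 for collagen without IL-4, and 669 and 68 for collagen with IL-4. With no filter, collagen without IL-4 gave 567.

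Leaving out 1 library gave 2292 to 3854 calls for IL-4 in high-collagen gels, 172 to 833 for collagen without IL-4 and 881 to 2615 for collagen with it. The median interaction of genes raised by IL-4 was -0.24 at a mean of at least 1 TPM, -0.27 after median-ratio rescaling and -0.27 to -0.16 with a library left out. That of genes lowered by IL-4 was 0.23 after quantile normalization and 0.28 to 0.43 with a library left out.

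Some genes that were not called turned sign. Angptl4 was -0.14 after quantile normalization, Cx3cr1 -0.28 with a pseudocount of 5 and -0.086 after quantile normalization, and Egr2 -0.32 with a pseudocount of 5. With a library left out, Cx3cr1 ranged from -0.002 to 0.41, Fasn from -0.54 to 0.071, Ifit1 from -1.51 to 0.047, Ifit2 from -1.54 to 0.25, Rnase6 from -0.079 to 0.54 and Rnaset2a from -0.043 to 0.49. The cause was not tested.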
